A study of Oryza sativa with 48 samples.

Results

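The genes described here are 100 rice genes whose mean transcript level after 1 day of complete submergence was above that of day 0 and above that of day 6, in both genotypes and both leaf types studied. They were selected on their measured values. Counts were scaled by the library total (CPM), the 3 replicates of a group were averaged, and for each genotype and leaf type the day 1 mean was set against the day 0 mean and against the day 6 mean as log2 ratios, with 1 CPM added to each mean. The smaller of both ratios was kept, and a gene's peak score was the lowest of the 4 values so obtained. Among the 17152 genes with a mean of at least 1 CPM in all 4 day 0 groups, the 100 with the highest score were taken, which is 0.583% of them.

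The plants were seedlings of the rice variety M202 and of its near-isogenic line M202(Sub1), which carries the submergence tolerance gene SUB1A in the M202 background. They were grown in greenhouse pots to the stage of 4.2 leaves, held under water for 0, 1, 3 or 6 days, and sampled as soon as they were taken out. Elongating leaves (the fifth leaf) and non-elongating leaves (the lower ones) were collected separately, which gives 16 groups of 3 independent biological replicates, or 48 libraries. The groups are M202 non-elongating, M202 elongating, M202(Sub1) non-elongating and M202(Sub1) elongating leaves, each on days 0, 1, 3 and 6. Day 0 leaves, never submerged, are the only control. No leaves kept in air until days 1, 3 or 6 are among the groups, so time and submergence cannot be told apart, and the hour of sampling is not given in the sources used here. Comparing the genotypes within a day and leaf type asks how the line with SUB1A differs from its parent.

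Water slows the entry of oxygen into leaves, and submerged rice cells draw more of their ATP from glycolysis, with ethanol fermentation turning NADH back into NAD. Alcohol dehydrogenase catalyses the last step of that fermentation, while aldolase, glyceraldehyde-3-phosphate dehydrogenase and enolase work in glycolysis upstream of it. The gas ethylene is trapped in submerged tissue and signals through its receptors to gibberellin and abscisic acid, the hormones that promote and restrain shoot elongation. SUB1A is an ethylene response factor known for limiting elongation and the spending of carbohydrate under water.

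Each library held 4873142 to 10369501 counts over 37830 genes. The leaf markers RBCS, RCA and LHCB1 summed to at least 2034 CPM in every library. The 3 root markers summed to at most 7.93 CPM, with LSI2, a silicon efflux transporter of roots, at 0.124 CPM or less, and the meristem markers OSH1 and OSH15 summed to at most 0.585 CPM, with OSH15 at 0 in all libraries. The 10 most abundant genes took 27.5% of the counts in replicate 2 of M202 non-elongating leaves on day 6, against 8.59% to 20.8% in the other 47 libraries. In that group 63 of the 100 genes were lowest in replicate 2, and the summary values that rest on it are also given without that library. The summed leaf markers stood between 10210 and 18950 CPM in the day 0 libraries and between 2034 and 8495 CPM in the libraries from under water. Their part in the results was not tested, and in such bulk leaf samples fewer cells of a type and less RNA per cell cannot be told apart.

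Together the 100 genes took 0.251% to 0.33% of the counts of a day 0 library. On day 1 the share was 2.27% to 2.61% in M202 non-elongating leaves, 2.46% to 2.51% in M202 elongating leaves, 3.29% to 3.47% in M202(Sub1) non-elongating leaves and 2.68% to 2.9% in M202(Sub1) elongating leaves. The shares had come down to 0.468% to 0.746%, 0.539% to 0.593%, 0.878% to 1.09% and 0.888% to 1.01% by day 6, in the same order. In M202 non-elongating leaves the median gene stood at 10.97 CPM on day 0, at 97.2 CPM on day 1, at 58.8 CPM on day 3 and at 27.9 CPM on day 6. Without replicate 2 on day 6, these leaves had a lowest share of 0.571% and a median of 29.8 CPM. CPM values are not corrected for gene length, so they order libraries and not genes. On day 1, 40 genes were at 100 CPM or more in all 4 groups and 1 gene was below 10 CPM in all 4. These shares and levels on days 0, 1 and 6 follow from the way the genes were chosen and are a description.

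**Figure D1:**
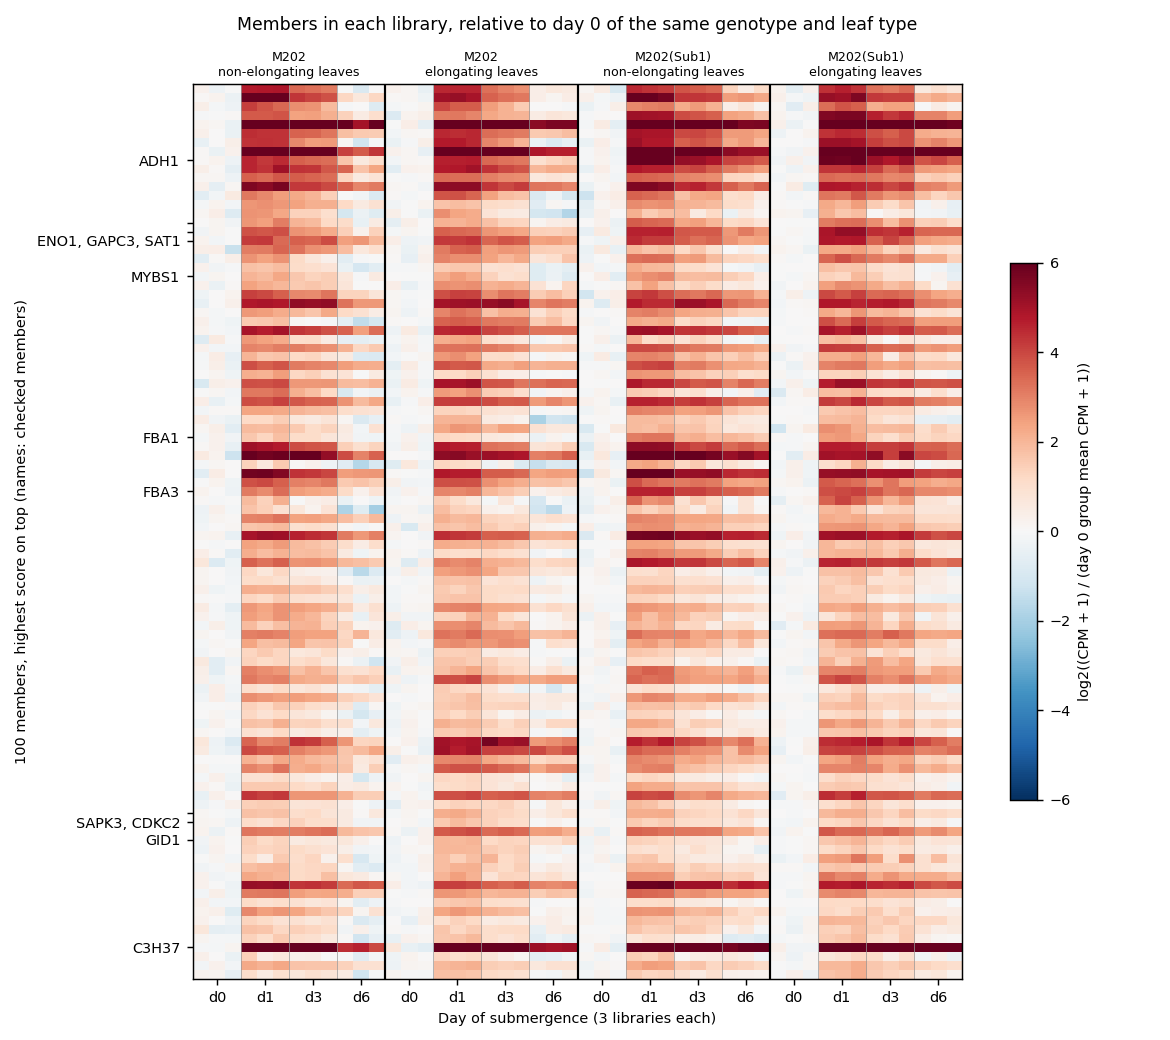
Level of the 100 genes in each library, as the log2 ratio of its CPM to the day 0 mean of the same genotype and leaf type (1 CPM added to each value). There is 1 column per library in each of the 16 groups and 1 line per gene, ordered by peak score, and colours saturate at 6. The day 1 columns are the darkest in all 4 blocks, and the day 3 columns lie between those of day 1 and day 6.

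The peak scores ran from 3.34 down to 0.87 with a median of 1.09, and 66 genes had a score of at least 1. The score was set by the day 6 mean in 86 genes and by the day 0 mean in 14, and most often, in 53 genes, by M202(Sub1) elongating leaves. Just inside the limit lay OS02G0608550 at 0.888, OS03G0848700 at 0.880 and OS04G0476700 at 0.871, and just outside it OS01G0225400 at 0.857, OS04G0531400 at 0.853 and OS01G0580500 at 0.851. The limit therefore falls within a run of closely spaced scores. Of the 17152 genes, 1938 (11.3%) had a score above 0.

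Names written from general knowledge passed a check for 11 of the 100 genes, and the other 89 are given by their identifiers. The named genes are therefore not a sample of the 100. The named genes are ADH1, FBA1, FBA3, GAPC3, ENO1, SAT1, C3H37, MYBS1, SAPK3, CDKC2 and GID1. ADH1 (OS11G0210300) encodes an alcohol dehydrogenase, FBA1 (OS05G0402700) and FBA3 (OS01G0905800) fructose-bisphosphate aldolases, GAPC3 (OS02G0601300) a cytosolic glyceraldehyde-3-phosphate dehydrogenase and ENO1 (OS10G0167300) an enolase. SAT1 (OS01G0720700) encodes a serine acetyltransferase, which makes the precursor of cysteine. C3H37 (OS05G0525900) encodes a CCCH zinc finger protein, and MYBS1 (OS01G0524500) a MYB factor that activates alpha-amylase genes under sugar starvation. SAPK3 (OS10G0564500) belongs to the SnRK2 kinases of osmotic stress and abscisic acid signalling, CDKC2 (OS01G0958000) to the cyclin-dependent kinases, and GID1 (OS05G0407500) encodes the gibberellin receptor. The 5 genes of glycolysis and fermentation were grouped after their names had been looked up, and reads of such enzymes can be shared with close copies, so their levels are uncertain to that extent.

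ADH1 had the highest score of the named genes, 2.11. In M202 non-elongating leaves its 3 libraries read 22.8, 25.5 and 17.6 CPM on day 0, 547.5, 437 and 504 CPM on day 1, 271.5, 250.3 and 231.5 CPM on day 3 and 71.0, 33.4 and 44.6 CPM on day 6. In M202(Sub1) non-elongating leaves ADH1 read 19.6, 24.7 and 18.5 CPM, then 1564, 1526 and 1402 CPM, then 852, 789 and 649 CPM, and 363, 344.5 and 279.9 CPM on day 6. The genotypes overlapped on day 0 and did not overlap on any day under water. In elongating leaves of M202, ADH1 read 11.3, 13.9 and 13.7 CPM on day 0, 351, 359 and 368 CPM on day 1, 150.2, 132.6 and 124.6 CPM on day 3 and 26.0, 32.7 and 37.9 CPM on day 6. In those of M202(Sub1) ADH1 read 13.7, 20.0 and 13.6 CPM, then 980.4, 958 and 1079 CPM, then 590.5, 471 and 649 CPM, and 228, 268 and 199 CPM. Here too every submerged M202(Sub1) library lay above every M202 library of its day.

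Both aldolase genes peaked on day 1 in all 4 combinations of genotype and leaf type. FBA3 in M202 non-elongating leaves read 126.4, 111.7 and 88.5 CPM on day 0, 962.1, 775.6 and 1138 CPM on day 1, 634.3, 558.7 and 517 CPM on day 3 and 244.6, 132.2 and 202.1 CPM on day 6. In M202(Sub1) non-elongating leaves FBA3 read 78.4, 114.8 and 100.9 CPM, then 2431, 2398 and 2531 CPM, then 1707, 1682 and 1455 CPM, and 1172, 1089 and 846.5 CPM. The lowest M202(Sub1) library of day 6 was thus still above the highest M202 library of day 3. ENO1 read 1982, 1716 and 2664 CPM on day 1 in M202 non-elongating leaves and 4681, 4316 and 4018 CPM in M202(Sub1). GAPC3 read 279.3, 257.3 and 283.2 CPM against 511.8, 512.2 and 532.5 CPM in the same leaves, and FBA1 147.2, 116.4 and 167.1 CPM against 282.8, 314.4 and 313.4 CPM. None of the 3 pairs of groups overlapped.

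Summed over ADH1, FBA1, FBA3, GAPC3 and ENO1, M202 non-elongating leaves held 511 ± 67.5 CPM on day 0, 3992 ± 730 on day 1, 2093 ± 403 on day 3 and 786 ± 326 on day 6 (SD, n = 3). The same sum in M202(Sub1) non-elongating leaves was 554 ± 104, 9112 ± 339, 4639 ± 567 and 2440 ± 363 CPM. In elongating leaves it was 436 ± 106, 2543 ± 121, 1353 ± 223 and 598 ± 78.3 CPM in M202, and 538 ± 3.94, 6938 ± 477, 4306 ± 995 and 2234 ± 198 CPM in M202(Sub1). The sums of both genotypes lay within each other's spread on day 0 in non-elongating leaves and far apart on every later day in both leaf types. Without replicate 2, M202 non-elongating leaves on day 6 averaged 949 CPM, from libraries at 786 and 1113 CPM.

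**Figure D2:**
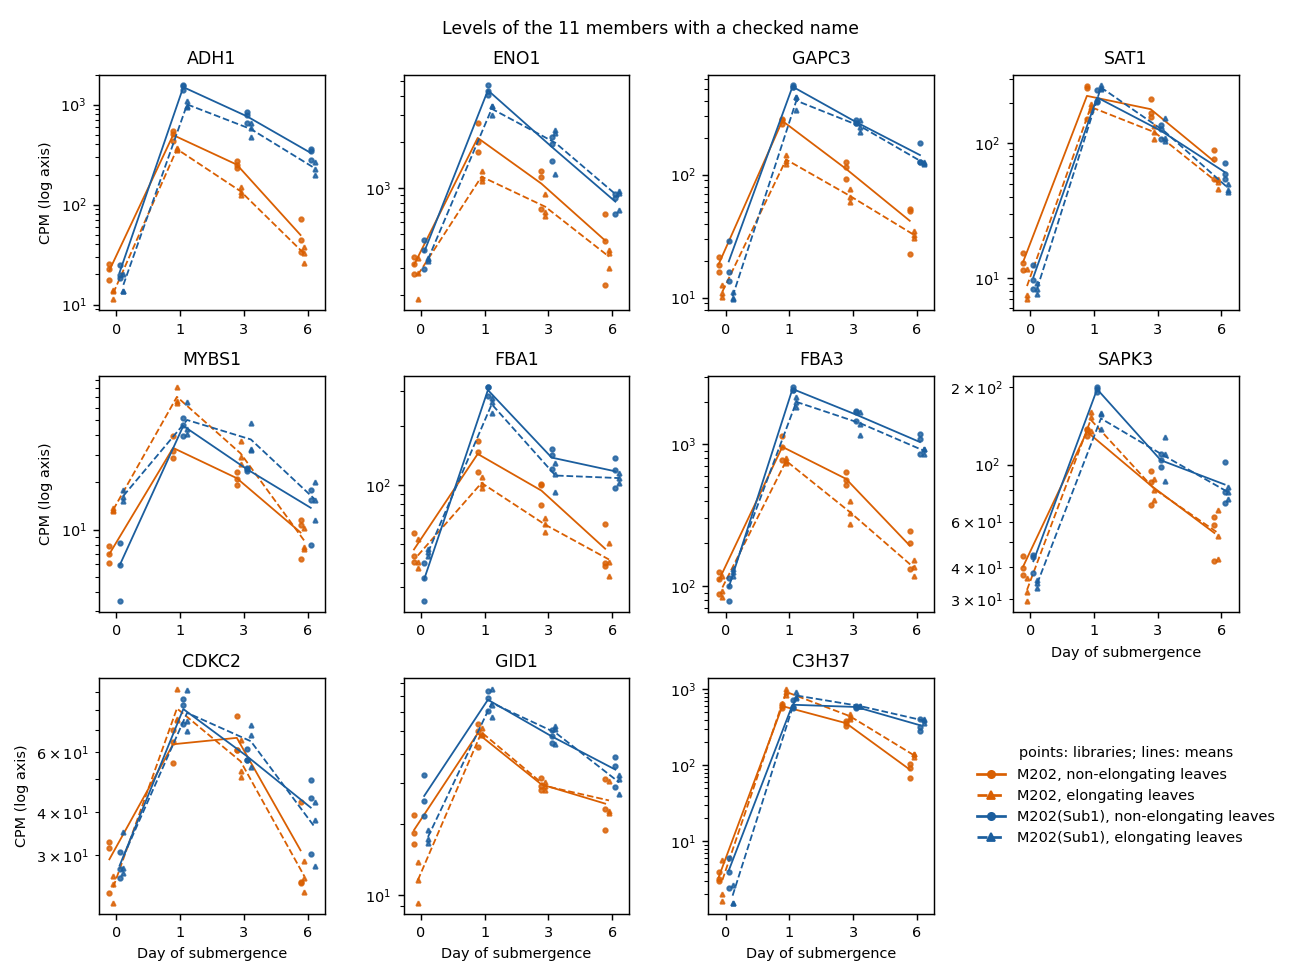
Level in CPM of named genes on days 0, 1, 3 and 6 (log axis), with points for single libraries and lines through the group means of each genotype and leaf type. ADH1, FBA3 and GAPC3 of M202(Sub1) lie above those of M202 from day 1 on, while those of SAT1 cross, with day 1 means of 225 and 219 CPM in non-elongating and 186 and 260 CPM in elongating leaves of M202 and M202(Sub1).

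SAT1 was not called in any genotype or leaf type test, although its libraries separated the genotypes in some groups. In non-elongating leaves it read 258.8, 264.9 and 150.2 CPM on day 1 in M202 and 250.3, 204.6 and 201.3 CPM in M202(Sub1), after 11.6 to 15.3 CPM and 8.22 to 12.6 CPM on day 0. On day 6 it read 76.3, 88.7 and 54.4 CPM in M202 and 71, 53.9 and 58.7 CPM in M202(Sub1). The groups overlapped on each of these days. On day 3 SAT1 read 167.4, 157.3 and 212.3 CPM in M202 and 136.9, 108 and 126.5 CPM in M202(Sub1), with no overlap (log2 difference -0.45 ± 0.18, adjusted p = 0.0938). In elongating leaves on day 1 it read 184.2, 176.4 and 196.6 CPM against 269.4, 251.9 and 257.6 CPM, again with no overlap and in the other direction (0.42 ± 0.18, adjusted p = 0.0929).

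C3H37 was close to the limit of the choice, with a score of 0.893, although its day 1 level was far above its day 0 level. In M202 non-elongating leaves it read 3.18, 2.98 and 3.90 CPM on day 0, 601.7, 634.2 and 566.6 CPM on day 1, 388.1, 362.2 and 325.2 CPM on day 3 and 91.4, 105.1 and 67.3 CPM on day 6. In M202(Sub1) non-elongating leaves C3H37 was at 724.2, 580.3 and 574 CPM on day 1, and still at 601.6, 564.1 and 589.1 CPM on day 3 and 278.8, 409.8 and 321.3 CPM on day 6. The groups overlapped on day 1 and were apart on days 3 and 6, with M202(Sub1) the higher.

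The other named regulators were MYBS1, SAPK3, CDKC2 and GID1. In M202 non-elongating leaves MYBS1 averaged 6.98 ± 0.860 CPM on day 0, 33.3 ± 5.52 on day 1, 21.3 ± 2.05 on day 3 and 9.58 ± 2.69 on day 6 (SD, n = 3). SAPK3 averaged 40.2 ± 3.56, 134 ± 4.23, 83.1 ± 12.7 and 54.2 ± 10.7 CPM in the same groups. GID1 averaged 18.9 ± 2.81, 48.8 ± 5.65, 29.6 ± 1.68 and 24.5 ± 6.295 CPM. CDKC2 averaged 29.1 ± 5.14, 63.4 ± 7.07, 66.2 ± 9.05 and 30.9 ± 10.5 CPM, so its day 3 mean in these leaves was as high as that of day 1.

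Among the genes without a checked name, OS08G0128000 had the highest score. OS08G0128000 in M202 non-elongating leaves read 2.12, 1.12 and 1.56 CPM on day 0, 69.7, 70.8 and 73.6 CPM on day 1, 27.2, 24.4 and 21.8 CPM on day 3 and 1.53, 0.414 and 1.68 CPM on day 6. Its day 6 and day 0 libraries overlapped there. OS03G0766600, second by score, averaged 5.27 ± 1.24, 523 ± 71.0, 104 ± 16.4 and 12.2 ± 2.92 CPM on the 4 days in the same leaves. OS03G0182800 had the largest log2 ratio of day 1 to day 0 of the 100 genes in each of the 4 combinations, at 9.10 and 9.495 in M202 non-elongating and elongating leaves and 8.38 and 8.42 in those of M202(Sub1). In M202 elongating leaves it read 3.63, 5.22 and 2.28 CPM on day 0 and 3136, 3315 and 3744 CPM on day 1. In M202(Sub1) elongating leaves it read 1559, 1546 and 1687 CPM on day 1, well below M202. OS05G0524400 went the other way, at 92.8, 98.3 and 83.0 CPM in M202 and 607.2, 644 and 654.5 CPM in M202(Sub1) elongating leaves on day 1.

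The extent of the return differed among the genes. The day 6 mean was above the day 0 mean in all 4 genotype and leaf type combinations in 63 genes and below it in all 4 in 2 genes. It was below the day 0 mean in 29 genes in M202 non-elongating leaves, 24 in M202 elongating leaves, 8 in M202(Sub1) non-elongating leaves and 9 in M202(Sub1) elongating leaves. Expressed as the share of the log2 rise from day 0 to day 1 that was left on day 6, the median gene kept 25.8% and 25.5% in M202 non-elongating and elongating leaves and 45.6% and 46.5% in those of M202(Sub1). Without replicate 2 of M202 non-elongating leaves on day 6, the median there was 32.3%, 23 genes lay below their day 0 mean there, 66 lay above it in all 4 combinations and 2 below it in all 4. Without it, 95 of the 100 genes would have been chosen again. Days 0, 1 and 6 entered the choice, so these counts and shares are a description. With all libraries, the 100 genes had median log2 ratios of day 6 to day 0 of 0.61, 0.645, 1.211 and 1.165. The order is that of the shares. Over all genes with the day 0 minimum the medians were -0.224, -0.017, -0.008 and 0.119, so M202(Sub1) was the higher there too. Whether the genotype contrast is particular to the 100 genes was not tested.

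Day 3 was not used in choosing the genes, and on that day most of them stood between their day 1 and day 6 means. This held for 95 genes in M202 non-elongating leaves, 97 in M202 elongating leaves, 99 in M202(Sub1) non-elongating leaves and 95 in M202(Sub1) elongating leaves, against 43.5%, 58.3%, 49.9% and 56.2% of the 17152 genes. It held in all 4 in 90 genes. The choice made day 1 the highest of the other days for these genes and not for all 17152, so the shares are given side by side and are not a test. The median gene was 1.87 ± 0.19 above its day 0 mean on the log2 scale in M202 non-elongating leaves (SD, n = 3) and 1.75 ± 0.23 above it in M202 elongating leaves. In M202(Sub1) the figures were 2.04 ± 0.14 in non-elongating leaves and 2.08 ± 0.175 in elongating leaves. Medians of the log2 ratio of day 3 to day 1 were -0.65, -0.70, -0.74 and -0.51, in the order M202 non-elongating, M202 elongating, M202(Sub1) non-elongating and M202(Sub1) elongating leaves.

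The level on day 3 was also described by single libraries. Libraries of days 0, 1 and 6 entered the choice of the genes, so these shares are not a test either. All 3 day 3 libraries lay above all 3 day 0 libraries in 92, 96, 98 and 99 of the 100 genes, in the order just given, against 27.3%, 29.0%, 27.4% and 33.8% of the 17152 genes. They lay below all day 1 libraries in 76, 89, 90 and 72 genes, against 14.3%, 14.3%, 15% and 8.65%. They lay above all day 6 libraries in 96, 91, 82 and 92 genes, against 28.7%, 23.9%, 11.1% and 13.4%, and the first of these counts was 97 without replicate 2 of M202 non-elongating leaves on day 6. The share of the log2 rise left on day 3 had medians of 74.5%, 70.5%, 74.5% and 80.9%. The log2 difference from day 1 to day 3 was larger than that from day 3 to day 6 in 21, 27, 45 and 23 genes.

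**Figure D3:**
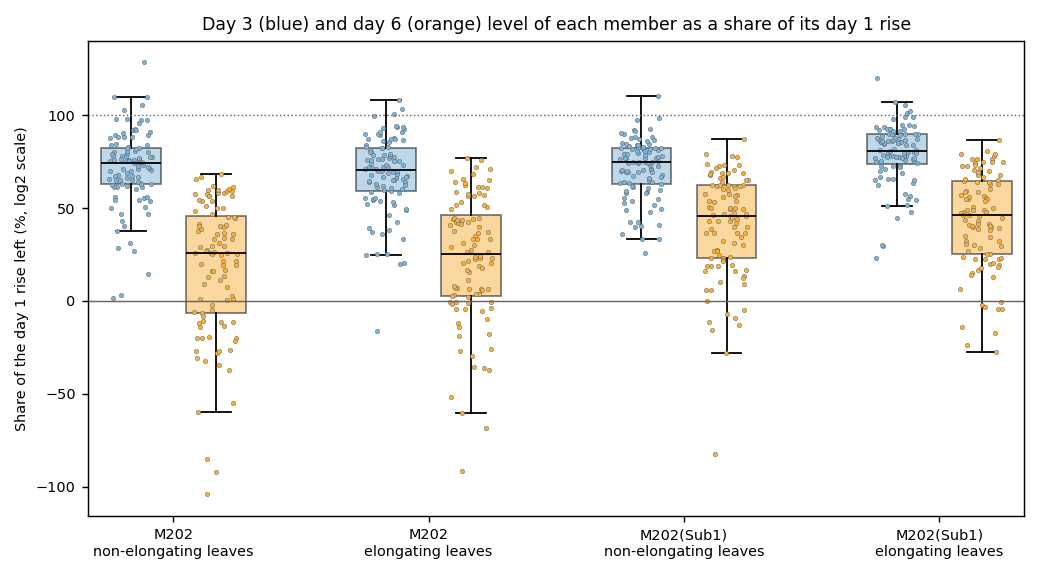
Share of the log2 rise from day 0 to day 1 left on days 3 and 6 for the 100 genes in each genotype and leaf type, in percent. The day 3 medians lie between 70.5% and 80.9%, and the day 6 medians lie near 25% in both M202 leaf types and near 46% in both M202(Sub1) leaf types.

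Not every gene had its highest mean on day 1 when day 3 was included. The day 3 mean was above the day 1 mean in at least 1 combination in 10 genes, and in at least 3 combinations in OS01G0185500 and OS06G0716100. OS01G0185500 read 254.9, 274.2 and 253.6 CPM on day 1 and 367.8, 344.4 and 365.7 CPM on day 3 in M202 non-elongating leaves. In M202(Sub1) elongating leaves the same gene read 247, 244.7 and 210.2 CPM, then 230.5, 248.4 and 203.8 CPM. Its day 3 libraries were thus clear of day 1 in the former group and overlapped it in the latter.

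The genotypes were compared within each day and leaf type by edgeR's quasi-likelihood test over all 21453 genes with enough counts, among them all 100 genes, and a gene was called when its Benjamini-Hochberg adjusted p was below 0.05. The comparisons on days 0, 1 and 6 use libraries that also entered the choice of the genes, although not this contrast, while those on day 3 use libraries that did not. Before submergence few of the 100 genes differed. In non-elongating leaves 1 gene was higher and 2 were lower in M202(Sub1), against 1.2% and 1.54% of all genes, or 2.74% in either direction. With the replicate number as a block in the fit of all groups, 1 gene was called. In elongating leaves 2 genes were higher and 3 lower, against 3.16% and 2.14% of all genes, or 5.3% in either direction. These day 0 counts depended on single libraries, with 1 to 3 and 1 to 7 genes called when each library was left out.

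On day 1, 34 of the 100 genes were higher and 6 lower in M202(Sub1) non-elongating leaves, where 15% of all genes were called, 5.95% as higher and 9.09% as lower. The differences ran from -1.396 to 1.89 on the log2 scale with a median of 0.21. On day 3, 29 genes were higher and 6 lower in these leaves, against 5.94% and 7.87% of all genes (13.8% in either direction), with a median of 0.20. On day 6, 38 genes were higher and 1 lower, against 7.17% and 8.13% (15.3%), with a median of 0.39. The median over all genes lay between -0.02 and 0.02 in each of these comparisons. Without replicate 2 of M202 non-elongating leaves on day 6, 36 genes were called there, 32 of them among the 39.

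In elongating leaves the picture on day 1 was mixed. There 21 genes were higher and 23 lower in M202(Sub1), against 8.76% and 11.6% of all genes (20.3% in either direction), and the median difference was -0.10. By day 3, 37 genes were higher and 6 lower, against 6.33% and 8.35% (14.7%), with a median of 0.26. On day 6, 40 genes were higher and 5 lower, against 10.3% and 10.1% (20.4%), with a median of 0.44 and a range from -0.61 to 3.23. Higher levels in M202(Sub1) thus outnumbered lower ones in both leaf types on days 3 and 6, and on day 1 in non-elongating leaves. Among the 17152 genes with the day 0 minimum, the shares called in either direction on days 0, 1, 3 and 6 were 2.37%, 15.6%, 14.4% and 15.5% in non-elongating and 5.39%, 22.2%, 15.2% and 21.7% in elongating leaves.

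**Figure D4:**
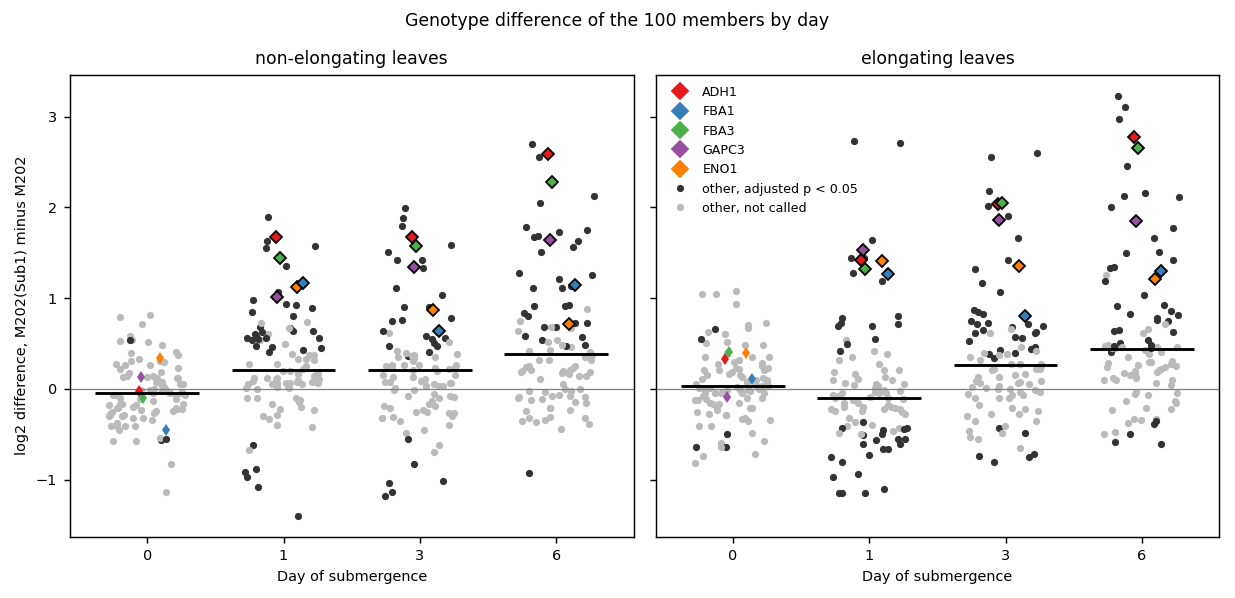
Log2 difference between M202(Sub1) and M202 for the 100 genes on each day, in non-elongating and elongating leaves, with called genes marked (edgeR, adjusted p below 0.05). The medians are -0.04, 0.21, 0.20 and 0.39 in non-elongating leaves and 0.03, -0.10, 0.26 and 0.44 in elongating leaves on days 0, 1, 3 and 6.

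Some of these differences were shared by the leaf types, with M202(Sub1) the higher in each. On day 1 there were 19, against 2.93% of all genes. On day 3 there were 26 (2.54% of all genes), and on day 6 there were 33 (4.02%). In all 6 comparisons under water 14 genes were higher, against 1.17% of all tested genes. These 14 were ADH1, FBA1, FBA3, GAPC3, ENO1, OS01G0198900, OS01G0256600, OS01G0853700, OS01G0867300, OS04G0387300, OS04G0610400, OS05G0524400, OS06G0710300 and OS08G0531300. The 5 named genes of glycolysis and fermentation among the 100 were all included. They were grouped after their names were looked up, and no list of glycolysis genes was tested. None of the 100 genes was lower in all 6, against 1.31% of all tested genes, and 5, 3 and 0 were lower in both leaf types on days 1, 3 and 6, against 4.98%, 4.26% and 4.21%. The 3 on day 3 were OS01G0566050, OS06G0716100 and OS12G0623600.

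For ADH1 the difference between M202(Sub1) and M202 in non-elongating leaves was -0.02 ± 0.17 (log2, SE, adjusted p = 0.998) on day 0 and 1.68 ± 0.15 on day 1 (adjusted p = 1.39e-12), which is 3.2-fold. On day 6 it was 2.59 ± 0.15, or 6.01-fold (adjusted p = 3.98e-18). In elongating leaves the ADH1 difference was 1.42 ± 0.15 on day 1, 2.04 ± 0.15 on day 3 and 2.77 ± 0.16 on day 6, from 2.68-fold to 6.84-fold, all of them called. FBA3 went the same way, at 1.45, 1.58 and 2.28 in non-elongating and 1.32, 2.05 and 2.66 in elongating leaves on days 1, 3 and 6, with adjusted p of 2.15e-10 or less in the former leaves. GAPC3 was 1.01, 1.34 and 1.64 higher in non-elongating and 1.53, 1.86 and 1.85 higher in elongating leaves. For FBA1 the differences were 1.17, 0.63 and 1.15, and 1.27, 0.80 and 1.30. These calls of ADH1, FBA3, GAPC3 and FBA1 held in every alternative tried.

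ENO1 was less even. In elongating leaves it was 1.41 ± 0.22 higher in M202(Sub1) on day 1 (adjusted p = 2.40e-06), 1.35 ± 0.22 on day 3 and 1.21 ± 0.22 on day 6. In non-elongating leaves the difference was 1.12 ± 0.22 on day 1, 0.87 ± 0.22 on day 3 (adjusted p = 0.00339) and 0.72 ± 0.22 on day 6 (adjusted p = 0.0175). The day 3 call was lost without replicate 3 of M202, at 0.67. The day 6 call was lost without replicate 2 of M202, at 0.44, without replicate 3 of M202, at 0.71, without replicate 1 or 2 of M202(Sub1), at 0.66 and 0.64, and in a fit of both groups alone, at 0.71.

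The other named genes differed on particular days. C3H37 was 0.785 ± 0.17 higher in M202(Sub1) on day 3 and 1.75 ± 0.18 higher on day 6 in non-elongating leaves, and 1.42 ± 0.17 higher on day 6 in elongating leaves, with no call on day 1 at 0.14 ± 0.17 and -0.22 ± 0.17. SAPK3 was 0.63 ± 0.12 higher in non-elongating leaves on day 1 (adjusted p = 0.000133), while its difference in elongating leaves was -0.05 ± 0.12. On days 3 and 6 SAPK3 was called higher in M202(Sub1) in both leaf types. GID1 was higher in both leaf types on day 3, by 0.76 ± 0.15 and 0.73 ± 0.145. It was also the only gene of the 100 called higher in both leaf types before submergence, by 0.54 ± 0.16 (adjusted p = 0.0456) and 0.66 ± 0.17 (adjusted p = 0.0107). Those day 0 calls were the weaker ones: the former was lost with the replicate block and without replicate 1 or 3 of M202 (0.45 and 0.54) or replicate 2 or 3 of M202(Sub1) (0.39 and 0.59), the latter without replicate 1 of M202 (0.53) or replicate 3 of M202(Sub1) (0.59), and both in fits of the groups alone.

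MYBS1 was called in both directions on day 1. It was 0.56 ± 0.20 higher in M202(Sub1) in non-elongating leaves (adjusted p = 0.0479) and -0.55 ± 0.19 in elongating leaves (adjusted p = 0.0309). Its libraries read 31.8, 28.6 and 39.4 CPM against 39.5, 46.8 and 51.5 CPM in the former, and 64.2, 81.4 and 65.8 CPM against 44.1, 40.8 and 65.6 CPM in the latter, so that the genotypes nearly met in the former and overlapped in the latter. The call in non-elongating leaves was lost without replicate 1 or 2 of M202 (0.52 and 0.48) or replicate 2 or 3 of M202(Sub1) (0.54 and 0.46), and that in elongating leaves without replicate 2 of M202 (-0.43) or replicate 1 or 2 of M202(Sub1) (-0.49 and -0.43). With MYBS1, 8 of the 100 genes were called in both directions over the 6 comparisons under water, against 3.04% of all genes.

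OS05G0524400 had the largest genotype difference of the 100 genes on day 1 in both leaf types. It was 1.89 ± 0.15 higher in M202(Sub1) in non-elongating leaves (adjusted p = 6.72e-14) and 2.73 ± 0.16 higher in elongating leaves (adjusted p = 6.97e-19). OS03G0182800 was lower in M202(Sub1) elongating leaves on day 1, at -1.15 ± 0.19 (adjusted p = 7.48e-06), and its difference in non-elongating leaves was -0.003 ± 0.19. OS03G0766600 and OS08G0128000, the leading genes by score, were not called on day 1 in either leaf type. On day 6 OS03G0766600 was 1.56 ± 0.17 and 1.51 ± 0.16 higher in non-elongating and elongating leaves of M202(Sub1).

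Leaf types were compared on days 1 and 3 within each genotype. On day 1 in M202, 40 of the 100 genes were higher and 16 lower in elongating than in non-elongating leaves, against 40.6% of all genes called in either direction, 20.0% higher and 20.5% lower. On day 3 in M202, 21 were higher and 22 lower, against 34.1% in either direction. In M202(Sub1) 14 were higher and 18 lower on day 1, against 15.4% and 14.3% (29.7%), and 19 were higher and 9 lower on day 3, against 10.7% and 10.7% (21.4%). Among the 17152 genes the shares in either direction were 43.8%, 36.8%, 32.5% and 23.2%. The count of higher genes lay farthest from the share of all genes in M202 on day 1. The M202(Sub1) counts depended on single libraries: without replicate 2 of non-elongating leaves on day 1 there were 20 called genes in place of 32, and without replicate 1 of elongating leaves on day 3 there were 17 in place of 28.

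In M202 on day 3 ADH1 was lower in elongating than in non-elongating leaves, at -0.76 ± 0.15 (adjusted p = 4.31e-05), as it was in M202(Sub1) on day 1, at -0.47 ± 0.14 (adjusted p = 0.00914). ADH1 was also called lower in M202(Sub1) on day 3, and was not called in M202 on day 1. GAPC3 was lower in elongating leaves of M202 on day 1, at -0.80 ± 0.16, and on day 3, at -0.60 ± 0.17. FBA3 was -0.65 ± 0.15 there on day 3 and was not called on day 1. C3H37 was higher in elongating leaves of M202 on day 1, by 0.87 ± 0.17 (adjusted p = 4.68e-05), as was MYBS1, by 1.34 ± 0.19 (adjusted p = 1.96e-07). Over both days and genotypes, 4 genes were higher and 4 lower in elongating leaves in all 4 comparisons, against 6.12% and 4.81% of all genes. In both genotypes 13 were higher and 8 lower on day 1 (11.6% and 10.7% of all genes), and 10 and 8 on day 3 (8.42% and 8.36%).

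The list of low oxygen metabolism held 11 genes with a checked name: 6 passed the minimum level at day 0, and ADH1 alone of the 11 was among the 100. Of its 3 identifiers without a checked name, which are not counted here, OS10G0390500 was also among the 100, and it was lower in elongating leaves in all 4 leaf type comparisons. PDC1, a pyruvate decarboxylase of the step before ADH1, and HB2, a hemoglobin, had scores of 2.20 and 3.66 and were left out by the minimum alone, since PDC1 averaged at most 0.0673 CPM and HB2 0.13 CPM in its lowest group at day 0. ADH2, a close copy of ADH1 that may share reads with it, had a score of 0.77 and was also below the minimum. On day 1 against day 0, 8 of the 10 tested list genes were higher and 2 lower in M202 non-elongating leaves, and 7 and 2 in M202 elongating leaves. In both M202(Sub1) leaf types 8 were higher and 2 lower. The share of all genes called was 26.1% to 27.9% higher and 26.3% to 28.8% lower over the 4 combinations, or 52.5%, 53.8%, 56.0% and 55.3% in either direction. All 100 genes were called higher in each, which the choice had fixed.

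Between genotypes, 5 list genes were higher and 3 lower in M202(Sub1) non-elongating leaves on day 1, 4 and 2 on day 3, and 5 and 2 on day 6, of 10 tested. The counts in elongating leaves were 5 and 1, 4 and 3, and 4 and 4. The share of all genes called over these 6 comparisons was 5.94% to 10.3% higher and 7.87% to 11.6% lower. ADH1, ADH2, PDC1 and HB2 were higher in each of the 6 comparisons. HB2 was already called higher, and SUS1 lower, in M202(Sub1) non-elongating leaves on day 0, against 1.2% and 1.54% of all genes. No list gene was called in elongating leaves on day 0. In non-elongating leaves ADH2 was 1.63, 2.65 and 3.97 higher on days 1, 3 and 6 (log2). CIPK15, a kinase of sugar and oxygen starvation signalling, was lower in all 6, from -0.83 to -2.51.

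No gene of the ethylene list entered the 100, and 3 of its 10 with a checked name, ACS1, ACS2 and ACS5, were below the day 0 minimum. Of the other 7, 4 had a score above 0: ETR2 at 0.24, ETR3 at 0.17, EIN2 at 0.42 and EIL1 at 0.12. ERS1, ERS2 and ACO1 had scores of -1.01, -2.54 and -2.65. Among all genes with the day 0 minimum, 11.3% had a score above 0, and whether the list differs from them was not tested. All 10 were tested. On day 1 against day 0, 8 were higher and 1 lower in M202 non-elongating leaves, and 6 were higher and 3 lower in each of the other combinations. The receptor gene ETR2 was 3.57 ± 0.15 higher on day 1 in M202 non-elongating leaves, and the receptor gene ERS2 was lower there, at -3.74 ± 0.60. Over the 4 combinations 26.1% to 27.9% of all genes were higher and 26.3% to 28.8% lower, or 52.5% to 56.0% in either direction. No score of the 7 clock genes was above 0. On day 1 against day 0, 1 clock gene was higher and 4 lower in M202 non-elongating leaves, 3 and 3 in M202 elongating leaves, 2 and 4 in M202(Sub1) non-elongating leaves, and 2 and 3 in M202(Sub1) elongating leaves, beside those same shares of all genes. PRR37, a pseudo-response regulator of the clock, was lower by log2 differences of -2.43, -2.03, -2.42 and -1.56.

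EREBP1, the only checked name of the group VII ERF list, had a score of -1.26. The JAZ repressors of jasmonate signalling and the heat shock genes gave no member, but 4 of 6 and 5 of 6 of them were below the day 0 minimum and could not be chosen. Of 5 tested JAZ genes 1 was higher on day 1 in M202 non-elongating leaves, none was called in M202 elongating leaves, and 1 was lower in each M202(Sub1) leaf type. Of 3 tested heat shock genes 2 were higher in M202 elongating leaves, 2 lower in M202(Sub1) non-elongating leaves, and 1 higher and 1 lower in M202(Sub1) elongating leaves. Of all genes, 26.1% to 27.9% were higher and 26.3% to 28.8% lower in these comparisons.

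By their identifiers the 100 genes lie on all 12 chromosomes. There were 22 on chromosome 1, 14 on chromosome 3 and 11 on chromosome 4, which hold 14.1%, 13.8% and 8.78% of the 17152 genes. Close neighbours were counted without a share over all genes beside them, so whether they are few or many was not tested. Within 5 identifiers of each other lay the 4 pairs OS01G0881300 and OS01G0881500, OS03G0305100 and OS03G0305400, OS03G0856500 and OS03G0857100, and OS04G0635500 and OS04G0635700.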

How the data were processed

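Total RNA of 48 leaf libraries was read as paired ends. The authors deposited raw counts per gene, and per the submitters' processing notes STAR, featureCounts and DESeq2 were used with the genome IRGSP-1.0. Of 37830 genes, 7430 had no count. Even values made up 62.3% to 73.8% of the counts above 0 in a library, so both reads of a pair may have been counted, and dispersion was estimated from the replicates. Depth was 4873142 to 10369501 counts (median 6854260). CPM were computed here from the column totals.

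All 16 groups entered 1 fit in edgeR 4.0.16 (R 4.3.3) with filterByExpr (minimum count 10, minimum total 15), TMM scaling and two-sided quasi-likelihood tests with 32 residual degrees of freedom, adjusted over 21453 genes. The script was tested on simulated data. DESeq2 1.42.0, RLE scaling, no filter, 2 groups alone, a replicate block and each library left out were the alternatives.

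The 100 genes, the gene lists and the rule for named genes were chosen with earlier results of these data known. Named are genes on a list, the genes with a checked name that scored highest or had the smallest adjusted p, those at the limit of the choice, and up to 3 genes a list. Genes singled out beyond that rule, such as OS03G0182800, were chosen after their values were seen. A name was used only where the reference table placed the symbol on the identifier's chromosome in matching order: 49 of 62 list names and 11 of 11 member names passed. That table follows another assembly, so no coordinates are given.

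Same-numbered replicates correlated at -0.103 to 0.157 over 36 pairs. Each pair was above 0.1 only between genotypes in non-elongating leaves on day 0 (0.137, 0.105 and 0.101). Single pairs of other comparisons reached 0.157, 0.135, 0.113 and 0.105. The labels give a number and no pairing, so pairing was not established and the main tests use none.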

Additional observations from a re-analysis of the deposited data

Results flagged for a closer look

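For 12 of the tests on the 100 genes, the difference between M202(Sub1) and M202 itself differed between leaf types (edgeR interaction term, adjusted p below 0.05), a comparison added after seeing the data. Values are the log2 difference in elongating leaves minus that in non-elongating leaves. On day 1, 9 of the 100 genes passed, against 2.63% of all genes. The 8 negative values were OS03G0182800 at -1.15 (adjusted p = 0.0104), MYBS1 at -1.11 (adjusted p = 0.0166), OS04G0635700 at -0.92, OS04G0635500 at -0.89, OS07G0537500 at -0.86, OS01G0566050 at -0.77, SAPK3 at -0.68 and OS08G0345700 at -0.62. OS05G0524400 was positive, at 0.84. On day 3, 2 genes passed, against 1.13% of all genes: OS03G0124900 at 1.93 (adjusted p = 0.0039) and OS06G0710300 at 1.11. On day 6 it was OS05G0524400 at 0.94, against 2.29% of all genes, and on day 0 none of the 100 passed, against 0.042% of all genes. On day 3 the mean level of OS03G0124900 in non-elongating leaves was 20.6 CPM for M202 against 8.69 CPM for M202(Sub1), and in elongating leaves 11.4 CPM against 19.7 CPM. The neighbours OS04G0635500 and OS04G0635700 passed together on day 1.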

How the results depend on the processing

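Of the 100 genes, 40 were chosen again with no minimum level at day 0, 53 with day 3 in place of day 6, and 82 to 95 with replicates left out. With the replicate block the 12 counts of called genes were 1, 40, 36 and 39 in non-elongating and 6, 43, 44 and 47 in elongating leaves for the genotypes on days 0, 1, 3 and 6, and 58, 43, 30 and 28 for the leaf types. By their labels the libraries of a block share only a number. The day 0 counts moved most: from 3 to 0 in non-elongating leaves with 2 groups alone, 1 with the block and 1 to 3 with libraries left out, and from 5 to 9 in elongating leaves with no filter, 9 with DESeq2, 2 with 2 groups alone and 1 to 7 with libraries left out. The leaf types of M202(Sub1) on day 1 gave 56 calls alone in place of 32, and 20 to 29 with libraries left out, those on day 3 gave 17 to 28. Leave-one-out counts for the genotypes on days 1, 3 and 6 were 30 to 35, 28 to 33 and 35 to 44 in non-elongating and 38 to 40, 31 to 43 and 33 to 48 in elongating leaves, and for the leaf types of M202 44 to 51 and 34 to 40. The day 3 level ranged over 1.78 to 1.97, 1.63 to 1.85, 1.98 to 2.12 and 2.02 to 2.18 in the order of the report. The split into higher and lower moved, among other settings, with RLE scaling on day 0, to 1 and 1 in non-elongating and 2 and 5 in elongating leaves. For the leaf types of M202(Sub1) on day 1 it was 11 and 21 with RLE scaling, 11 and 25 with DESeq2 and 20 and 36 with 2 groups alone. For the genotypes on days 1, 3 and 6, 2 groups alone gave 52, 45 and 29 calls in non-elongating leaves, in place of 40, 35 and 39. In elongating leaves they gave 54, 47 and 52, in place of 44, 43 and 45. Of 63 calls of named genes, 44 held in every alternative, 19 were lost in at least 1 and 0 reversed. Groups of 3 limit what small differences can be called, and the cause of these shifts was not tested.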
